A study of Mus musculus with 8 samples.

Results

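The genes described here are the cyclins, the cyclin-dependent kinases (CDKs), the CDK inhibitors, the RB family and the E2F factors, as measured in jejunal crypts of fasted and fed mice that had received etoposide. Members were the non-control probes whose gene name in the scanner files was one of a fixed list of symbols, and all 48 symbols were found, on 72 probes. The arrays carried 30325 named genes on 39429 probes. Of the 48 members, 38 passed the filter on dim probes and were tested. The study captured lower crypts of the jejunum by laser microdissection and hybridised their RNA to 1 single-colour array per mouse, 4 fasted and 4 fed. Every mouse carried the Lgr5EGFP-IRES-CreERT2/+ knock-in, in which the Lgr5 promoter drives EGFP and an inducible Cre recombinase in crypt base stem cells. Every mouse was 4 to 6 weeks old and received 80 mg/kg of etoposide, which poisons topoisomerase II and leaves breaks in DNA, into the tail vein, so no array shows crypts without the drug. Fasted mice had gone 24 h without food before the injection, fed mice had not, and both were given moistened pellets afterwards until the gut was taken at 3 h. Assignment to the groups was random, and by their labels 2 males and 2 females made up each group.

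Cyclins are the regulatory subunits of the CDKs, and their rise and fall through the division cycle sets which kinase is active. Cyclin D with CDK4 or CDK6, and then cyclin E with CDK2, phosphorylate RB and its relatives p107 and p130, which releases the E2F factors to switch on genes of DNA replication. Cyclins A and B with CDK1 carry cells through G2 into mitosis, while the INK4 and CIP/KIP inhibitors hold the kinases back. Crypts of the small intestine divide rapidly, and DNA breaks stop such cells at checkpoints that act on these kinases.

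A level below is the log2 processed signal minus the 75th percentile of its array, so 0 is that percentile, and a difference is fasted minus fed in log2 units. Per array 53.2% to 65.4% of probes were well above background and no probe was saturated. Fasted array 3 stood apart: it was the single array of its scan day, shared its slide with none of the others, and correlated with the other arrays at 0.824 to 0.924 across genes. Fed array 4 was labelled female, yet the female-specific transcript Xist was not well above background there, at a log2 signal of 4.69 against 13.09 to 13.69 on the other arrays labelled female, and the Y-linked Eif2s3y was well above background at 9.31. On fed array 1, labelled male, Eif2s3y was not well above background at 7.29, against 8.42 to 9.79 on the other arrays labelled male, and Xist was not either. Fasted array 3 and fed array 4 are called the arrays in doubt below, and results that turn on them are given with and without both. Fed array 1 was kept in those fits. For Lgr5, the defining marker of crypt base stem cells, none of the arrays had a signal well above background, whereas Olfm4, another stem cell marker, and Lyz1, the lysozyme of Paneth cells, were well above it on all 8. Because RNA came from whole captures, fewer cells of a type and less RNA per cell cannot be told apart.

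No cyclin, CDK, inhibitor, RB or E2F gene passed the test between fasted and fed crypts, and neither did any other gene. The test was limma with a Benjamini-Hochberg threshold of 0.05 over 19528 genes, 0% of which were called, and the smallest adjusted p was 0.788. An unadjusted p under 0.05 was found for 1161 of them, or 5.95%. At an unadjusted p under 0.05, limma listed 5 members as higher in fasted crypts, where 3.93% of all genes were listed, and 1 member as lower, where 2.02% were. Those higher were Ccnjl, E2f8, Cdkn2b, E2f3 and Ccnd2, and the lower one was Cdkn3. E2f8 reached the test mostly through the group in which it was higher, since most of its fed signals were dim. Stricter filters on dim probes, asking for all 8 arrays or for all 4 of a group, removed E2f8. Under each of them 4 members were listed as higher, and the matching share of all genes is not given. The 4 fasted and 4 fed values did not overlap for Ccnjl, Cdkn2b, E2f3 and Ccnd2 on the higher side, against 2.97% of all genes, and for Cdkn3 on the lower side, against 2.1%. In either direction these are 5 members of 38, where 5.07% of all genes had groups apart. Of the 38 members tested, 24 had a positive and 14 a negative difference, and their median was 0.09, where 44.5% of all genes were higher and the median was -0.06. Without fasted array 3 the members split into 19 higher and 19 lower around a median of 0.00, and without fed array 4 or without both arrays in doubt, the split and the median were the same to 2 decimals.

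**Figure D1:**
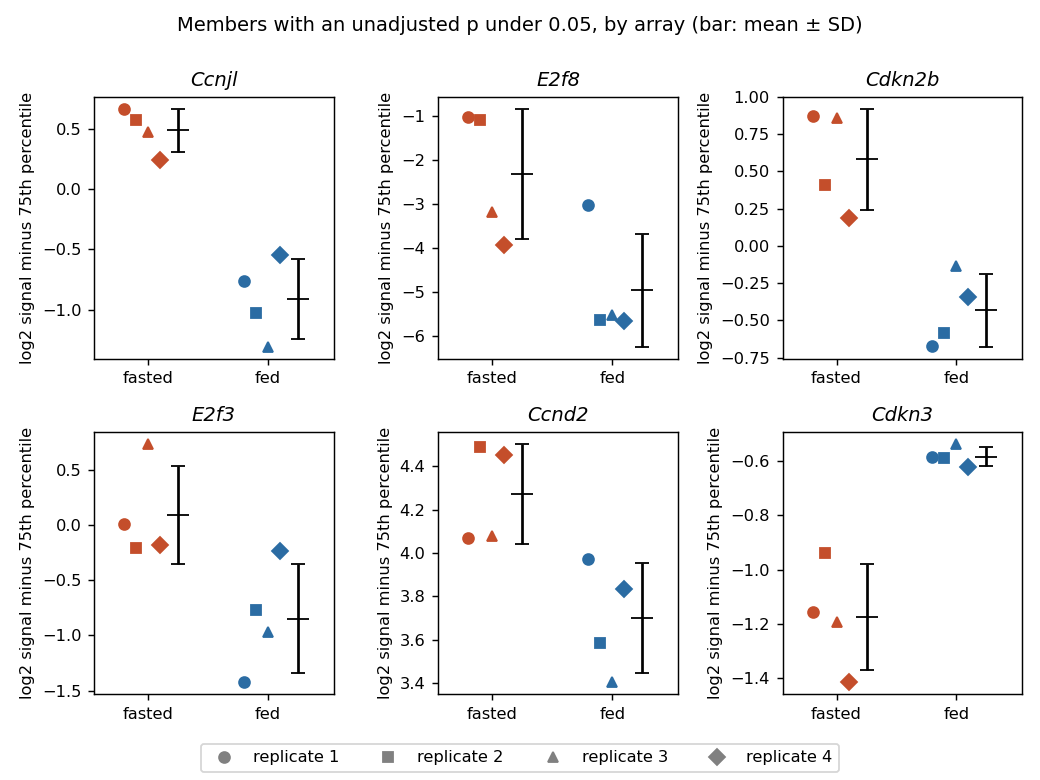
Level of the 6 members with an unadjusted p under 0.05 on each array, in log2 signal minus the array's 75th percentile, with fasted arrays in red, fed arrays in blue, symbols for replicates and bars for mean ± SD (n = 4). Fasted and fed points separate in all panels but that of E2f8, where fed array 1 lies at -3.02 among the fasted points.

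**Figure D2:**
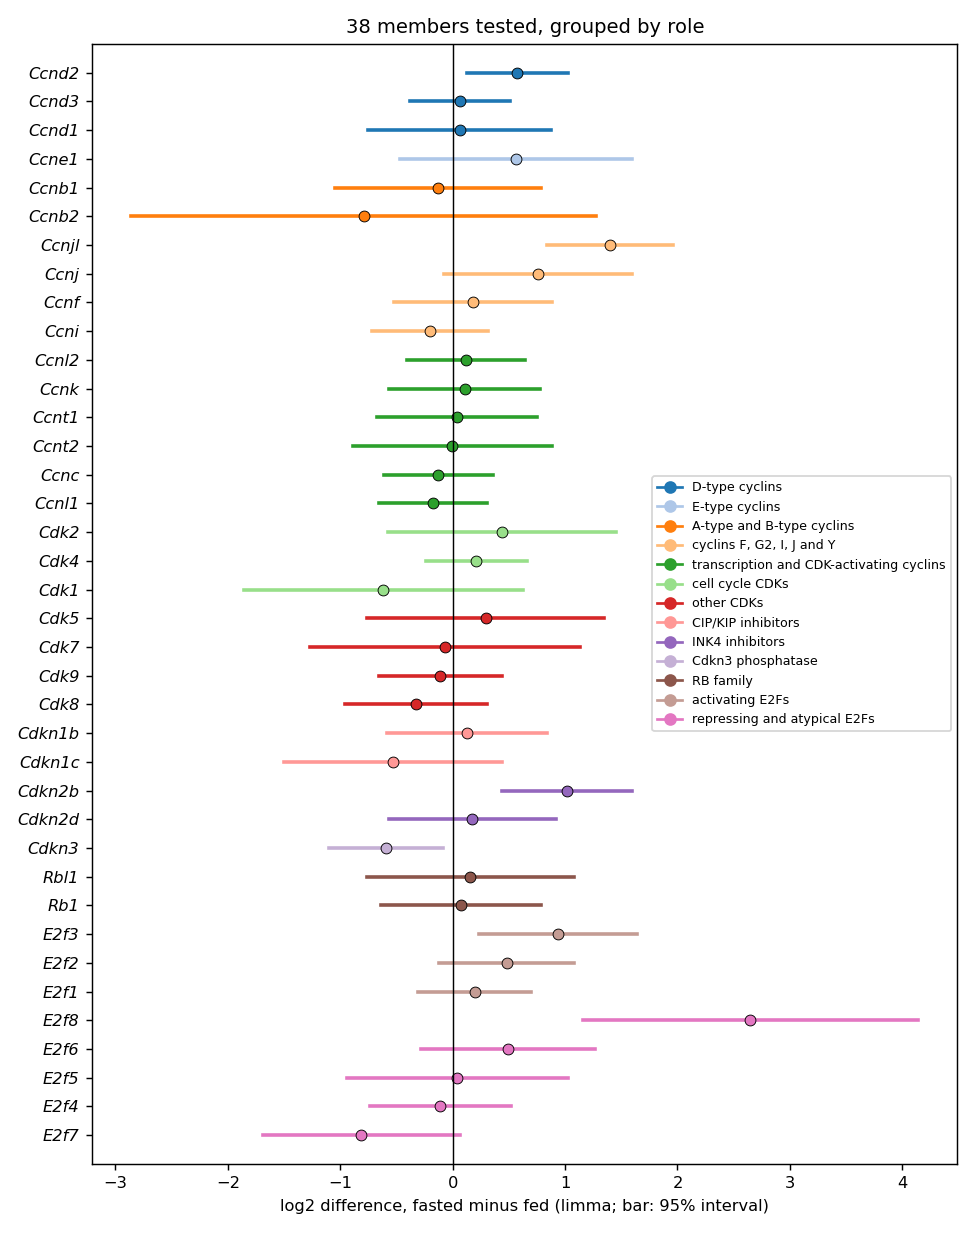
Fasted minus fed difference in log2 units from limma for each of the 38 members tested, coloured by role, with bars for the 95% interval. Most intervals include 0, and those of Ccnd2, Ccnjl, Cdkn2b, E2f3 and E2f8 lie above it while that of Cdkn3 lies below. The E2f8 probe passed the filter mostly through the fasted arrays.

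The D-type cyclins, which receive growth signals and activate CDK4 and CDK6 in G1, were all measured. Ccnd2 read 4.07, 4.49, 4.08 and 4.45 on fasted arrays 1 to 4 and 3.97, 3.59, 3.41 and 3.84 on fed arrays 1 to 4. Every fasted array lay above every fed array, with the narrowest gap between fed array 1 and fasted arrays 1 and 3. The means were 4.27 ± 0.23 and 3.70 ± 0.25 (SD, n = 4 each). The difference was 0.57 (SE 0.20, 95% interval 0.12 to 1.02), a 1.49-fold ratio that did not pass in limma (adjusted p = 0.788), and it was 0.68 without the arrays in doubt. Ccnd1, the D-type cyclin best known as a Wnt and growth factor target, read 1.86, 1.20, 2.47 and 1.72 fasted and 2.50, 1.65, 1.24 and 1.62 fed. Ccnd3 read 1.48, 1.27, 1.89 and 1.45 fasted and 1.56, 1.35, 1.42 and 1.5 fed. Both sets of values overlapped widely. Their differences were 0.06 each, with intervals from -0.75 to 0.87 for Ccnd1 and from -0.38 to 0.51 for Ccnd3, and each took a negative sign without the arrays in doubt (-0.20 and -0.04).

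Cdk4, the main kinase partner of the D-type cyclins, read 2.66, 2.72, 2.75 and 2.27 on the fasted arrays and 2.77, 2.26, 2.37 and 2.16 on the fed arrays. The highest and the lowest of these values were both from fed arrays. The difference was 0.21 (SE 0.20, interval -0.24 to 0.66), and the other 2 Cdk4 probes gave 0.05 and 0.04. Cdk6, the other partner, gave no signal well above background on the 8 arrays.

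Cyclin E and CDK2 carry cells into S phase. Ccne1 read -0.18, -0.68, -1.31 and -1.29 on the fasted arrays and -1.04, -2.23, -1.89 and -0.54 on the fed arrays. Fasted array 1 was highest, fed array 2 was lowest, and the groups overlapped. The difference was 0.56 (SE 0.45, interval -0.47 to 1.6). It was 1.01 without the arrays in doubt (adjusted p = 0.512 in limma), 0.96 without fed array 4 and 0.20 without fed array 2, so single arrays moved it by more than 1.5 times in both directions. On the slide shared by fasted array 4 and fed array 4 it was -0.74, against 0.86 and 1.21 on the slides of fasted 1 with fed 1 and of fasted 2 with fed 3. Cdk2 read -0.85, -2.26, -1.05 and -2.34 fasted and -1.74, -2.47, -2.26 and -1.80 fed, a difference of 0.44 (SE 0.44). Fasted arrays 1 and 3 were high and the other fasted arrays lay among the fed ones. The Cdk2 difference was 0.12 with the slide as a block, 0.20 with array weights and 0.25 with normexp. It was 0.14 without fasted array 1, 0.20 without fasted array 3, 0.27 without fed array 2, 0.70 without fasted array 2 and 0.72 without fasted array 4. Ccne2, the other E-type cyclin, gave no signal well above background.

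The mitotic kinase gene Cdk1 and the B-type cyclins that activate it were low on 1 array, fasted 3. Cdk1 read -0.78, -1.11, -3.69 and -1.32 on the fasted arrays and -0.80, -1.26, -1.21 and -1.16 on the fed arrays. Ccnb2 read -2.25, -1.70, -5.74 and -1.49 fasted and -2.51, -2.22, -1.76 and -1.52 fed, and its probe was well above background on 3 of the 4 fasted arrays and all 4 fed ones. Ccnb1 read -2.22, -1.74, -3.08 and -2.15 fasted and -2.73, -2.23, -1.83 and -1.88 fed. Apart from fasted array 3, the fasted and fed values of all 3 genes covered much the same range. The differences were -0.62 for Cdk1 (SE 0.54), -0.79 for Ccnb2 (SE 0.90) and -0.13 for Ccnb1 (SE 0.40). Without fasted array 3 they were 0.00 to 2 decimals for Cdk1, 0.29 for Ccnb2 and 0.18 for Ccnb1.

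Several probes allowed the reading of fasted array 3 to be compared within a gene. A second Cdk1 probe, which passed the filter, read -5.96 there against -1.93 to -1.0 on the other fasted arrays. For Ccnb1 the 3 probes gave differences of -0.13, -1.14 and 0.43, so their signs were mixed, and fasted array 3 was the lowest fasted array on each. The A-type cyclins could not be compared. Ccna2, the cyclin of S phase and G2, and Ccna1, its germ line relative, gave no signal well above background on the 8 arrays.

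**Figure D3:**
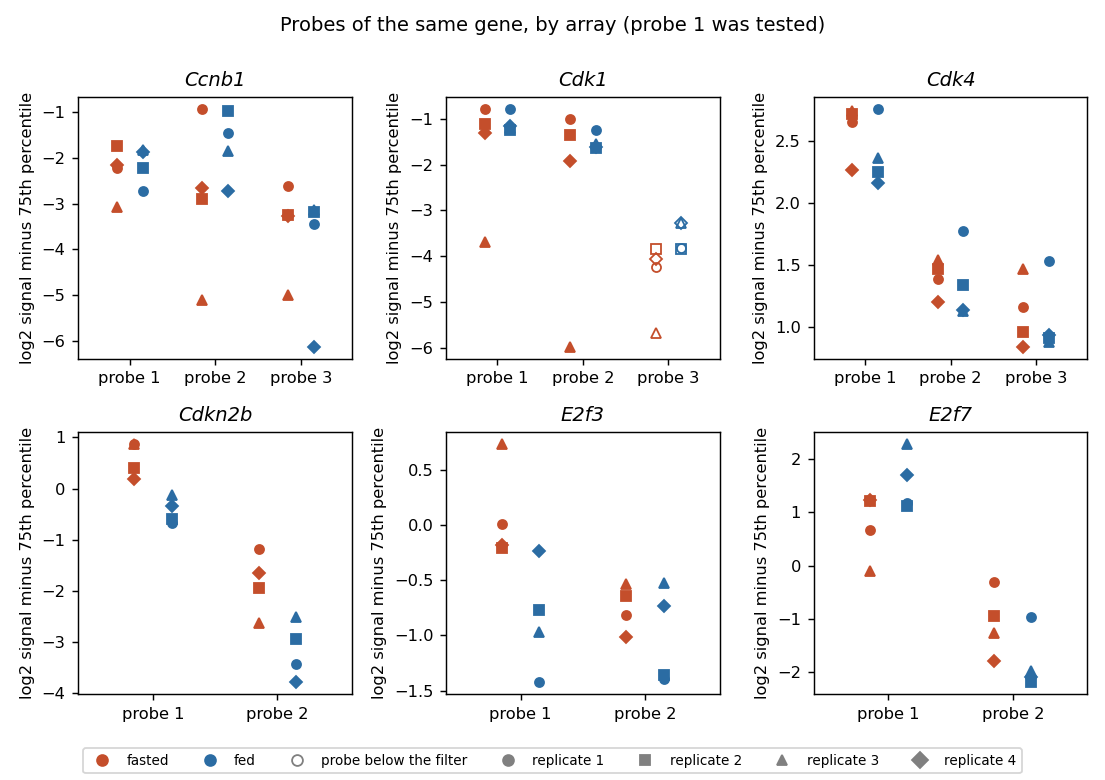
Level on each array, in log2 signal minus the array's 75th percentile, of every probe of 6 members measured by several probes, with fasted arrays in red, fed arrays in blue and open symbols for a probe that did not pass the filter. Fasted array 3 (triangle) is far below the rest on the passing Cdk1 probes and lowest of the fasted arrays on all Ccnb1 probes, and the E2f7 probes differ in the sign of the group difference.

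Ccnjl, which encodes cyclin J-like, a poorly characterised relative of cyclin J, had the smallest p among the members and the third smallest among all genes tested. It read 0.66, 0.57, 0.47 and 0.24 on fasted arrays 1 to 4 and -0.76, -1.03, -1.31 and -0.54 on fed arrays 1 to 4. The groups were separated by more than either group's own range, with means of 0.49 ± 0.18 and -0.91 ± 0.33 (SD, n = 4 each). The difference was 1.40 (SE 0.24, interval 0.84 to 1.96), a 2.64-fold ratio. It did not pass in limma (adjusted p = 0.788), and under the alternatives the adjusted p ran from 0.146 to 0.998 and the difference from 0.99 to 1.58. Without the arrays in doubt the difference was 1.53.

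Ccnj itself, cyclin J, ranged from -1.64 to -0.60 on the fasted arrays and from -2.33 to -1.15 on the fed arrays, and the groups overlapped. The difference was 0.76 (SE 0.36, interval -0.08 to 1.6), and a second probe gave 0.18. Ccnf, a substrate adaptor of an SCF ubiquitin ligase, was 0.18 higher (SE 0.31) and Ccni, an atypical cyclin, was 0.20 lower with a difference of -0.20 (SE 0.22). Ccng2, linked to cell cycle arrest, and Ccny, a membrane-bound cyclin, gave no signal well above background.

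The cyclins and CDKs that act on RNA polymerase II lay close to 0. Ccnc and Cdk8 belong to the Mediator kinase module, Ccnt1, Ccnt2 and Cdk9 form P-TEFb, which releases paused polymerase, Ccnk partners transcription elongation kinases, and Ccnl1 and Ccnl2 act in splicing. Their differences ran from -0.32 for Cdk8 (SE 0.28) to 0.12 for Ccnl2 (SE 0.23), and fasted and fed values overlapped on the tested probe of each. Cdk7, the kinase of the CDK-activating complex, was at -0.07 (SE 0.52) with fasted array 1 at -4.49 and every other array between -3.13 and -2.36. Ccnh, its cyclin, gave no signal well above background, and Cdk5, best known as a kinase of neurons, was at 0.29 (SE 0.46). The tested Ccnl2 probe and its second probe, also well above background on all 8 arrays, differed in sign, at 0.12 against -0.27. On the second probe the fasted values, from 0.12 to 0.58, all lay below the fed values, from 0.64 to 0.70. The tested Cdk8 probe and the other 2 Cdk8 probes differed in sign, at -0.32 against 0.35 and 0.30.

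Among the tested inhibitors, Cdkn2b had the largest difference. Cdkn2b encodes the INK4 protein p15, which binds CDK4 and CDK6 and is known as a target of TGF-beta signalling. It read 0.87, 0.41, 0.86 and 0.18 on fasted arrays 1 to 4 and -0.67, -0.59, -0.13 and -0.34 on fed arrays 1 to 4. All fasted arrays lay above all fed arrays, with fasted array 4 and fed array 3 closest. The means were 0.58 ± 0.34 and -0.43 ± 0.24 (SD, n = 4 each). The difference was 1.01 (SE 0.25, interval 0.43 to 1.59), a 2.02-fold ratio that did not pass in limma (adjusted p = 0.788), and it was 0.95 without the arrays in doubt. A second Cdkn2b probe read -1.17, -1.94, -2.64 and -1.65 fasted and -3.43, -2.95, -2.51 and -3.78 fed. Its difference was 1.31, though fasted array 3 lay below fed array 3 and 2 of the fed arrays were well above background.

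The other INK4 genes showed less. Cdkn2d, encoding p19, was at a difference of 0.17 (SE 0.32) with overlapping groups. Cdkn2c, encoding p18, was well above background on 1 fasted array and no fed array, and Cdkn2a, encoding p16 and the p19 ARF protein, on none. Of the CIP/KIP genes, Cdkn1b, which encodes the quiescence inhibitor p27, read 2.11, 1.48, 2.31 and 1.33 fasted and 2.31, 1.80, 1.47 and 1.13 fed. The groups covered the same range. The difference was 0.13 (SE 0.31, interval -0.58 to 0.84) and turned to -0.22 without the arrays in doubt. Cdkn1c, encoding p57, was at -0.53 (SE 0.42) with fed array 4 and fasted array 2 lowest and the groups overlapping.

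Cdkn3 encodes a phosphatase that removes the activating phosphate from CDKs. It read -1.16, -0.94, -1.19 and -1.41 on fasted arrays 1 to 4 and -0.59, -0.59, -0.54 and -0.62 on fed arrays 1 to 4. All fasted arrays were below all fed arrays, and the fed arrays lay within a narrow band, with means of -1.18 ± 0.19 and -0.58 ± 0.04 (SD, n = 4 each). The difference was -0.59 (SE 0.22, interval -1.10 to -0.09), a 1.51-fold ratio, and did not pass in limma (adjusted p = 0.788). It was -0.60 without the arrays in doubt.

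The RB family acts as the brake that CDKs release. Rb1 read -0.30, -0.98, -0.75 and -1.50 on the fasted arrays and -0.31, -0.96, -1.03 and -1.53 on the fed arrays. Rbl1, encoding p107, read -1.55, -0.50, -2.0 and -0.88 fasted and -1.87, -1.52, -1.24 and -0.92 fed. Arrays of the same slide had nearly the same Rb1 level, with fasted minus fed differences of 0.01, 0.05 and 0.03 on the 3 shared slides. The fits gave 0.08 for Rb1 (SE 0.31, interval -0.63 to 0.79) and 0.16 for Rbl1 (SE 0.40, interval -0.76 to 1.08). Without the arrays in doubt Rb1 turned to -0.16 and Rbl1 rose to 0.57. Rbl2, encoding the quiescence-associated p130, passed background clearly on 2 fasted arrays and 1 fed array and was not tested.

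E2F genes and their RB partners are themselves known E2F targets, so the promoter windows of the members were searched for the E2F site. A window held 250 bases before and 50 bases after a transcription start of RefSeq on GRCm38.p6, and 37 of the 48 members had one. The letters searched were TTTGGCGC, TTTCCCGC, TTTGCCGC and TTTCGCGC on both strands. They occurred for 7 of the 37 members (18.9%), namely Cdk1, Cdk2, Cdkn2a, E2f2, E2f3, E2f7 and Rbl1, and for 704 of 27025 genes in the table (2.6%). The CHR element of G2/M genes, searched as TTTGAA or TTCGAA on both strands, occurred for 10 of 37 members (27.0%) and for 21.7% of all genes. Shown here are the windows of the activator E2f3, the repressor E2f7, the mitotic kinase gene Cdk1 and the pocket protein gene Rbl1, each read 5′ to 3′ along the gene's strand with the E2F letters in capitals. They lie at chr13:29986014-29986313 on the minus strand for E2f3, chr10:110745189-110745488 on the plus strand for E2f7, chr10:69352863-69353162 on the minus strand for Cdk1 and chr2:157204485-157204784 on the minus strand for Rbl1.
E2f3: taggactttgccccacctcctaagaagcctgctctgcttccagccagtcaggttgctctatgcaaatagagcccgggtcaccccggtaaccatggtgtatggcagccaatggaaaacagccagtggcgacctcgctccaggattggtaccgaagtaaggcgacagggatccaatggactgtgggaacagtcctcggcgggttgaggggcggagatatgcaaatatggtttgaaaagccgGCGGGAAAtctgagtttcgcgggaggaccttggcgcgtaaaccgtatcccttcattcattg
E2f7: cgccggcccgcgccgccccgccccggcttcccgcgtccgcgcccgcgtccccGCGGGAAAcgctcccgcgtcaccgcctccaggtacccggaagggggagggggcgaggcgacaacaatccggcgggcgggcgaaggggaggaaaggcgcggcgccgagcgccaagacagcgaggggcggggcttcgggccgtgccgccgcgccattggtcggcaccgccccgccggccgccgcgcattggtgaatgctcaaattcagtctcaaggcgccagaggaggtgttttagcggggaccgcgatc
Cdk1: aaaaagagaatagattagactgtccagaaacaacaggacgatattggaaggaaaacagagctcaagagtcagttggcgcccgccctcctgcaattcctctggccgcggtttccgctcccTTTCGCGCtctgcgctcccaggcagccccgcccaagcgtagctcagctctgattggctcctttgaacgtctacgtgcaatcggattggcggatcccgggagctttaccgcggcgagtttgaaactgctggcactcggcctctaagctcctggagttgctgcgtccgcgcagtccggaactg
Rbl1: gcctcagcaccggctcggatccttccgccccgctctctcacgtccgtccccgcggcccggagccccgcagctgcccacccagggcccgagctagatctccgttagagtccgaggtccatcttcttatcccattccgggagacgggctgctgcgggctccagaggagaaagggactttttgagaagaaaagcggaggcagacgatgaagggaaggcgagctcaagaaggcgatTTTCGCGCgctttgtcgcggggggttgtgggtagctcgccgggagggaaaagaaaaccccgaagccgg
The first capital lies at position -11 from the start for E2f3, -198 for E2f7, -131 for Cdk1 and -18 for Rbl1, and E2f3 has another window in the table without these letters. A match describes the sequence only, and a window without one says only that these letters are not in it.

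Of the 6 tested members holding the E2F letters, 4 had a positive and 2 a negative difference, and these ran from -0.81 to 0.94 around a median of 0.30. The negative values are those of Cdk1, which was at 0.00 to 2 decimals without fasted array 3, and of E2f7, whose probes differ in sign. Of the positive ones, E2f3 was at 0.26 on its second probe. Over the alternatives Cdk2 ran from 0.12 to 0.72 and Rbl1 from -0.16 to 0.57. No shared or mixed direction is therefore read from the 6. The 25 tested members with a window lacking the letters had 15 higher and 10 lower around a median of 0.11.

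The activating E2F genes, which drive entry into S phase, all had positive differences. E2f3 read 0.01, -0.20, 0.73 and -0.18 on fasted arrays 1 to 4 and -1.42, -0.77, -0.97 and -0.24 on fed arrays 1 to 4. The groups did not overlap, but fed array 4 lay just under fasted arrays 2 and 4. The means were 0.09 ± 0.44 and -0.85 ± 0.49 (SD, n = 4 each). The difference was 0.94 (SE 0.31, interval 0.23 to 1.64), a 1.92-fold ratio that did not pass in limma (adjusted p = 0.788). It was 0.93 without the arrays in doubt and 0.60 when the probes of the gene were averaged.

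The E2f3 result depended on the probe. In the files' mm9 coordinates the tested probe spans 3387 bases, chr13:30005369-30008755, so its 2 ends match apart from each other, and a second probe lies at chr13:29998480-29998539. That probe read -0.81, -0.64, -0.53 and -1.01 fasted and -1.40, -1.36, -0.53 and -0.73 fed, with overlapping groups and a difference of 0.26. E2f1 read 0.19, -0.18, -0.51 and -0.50 fasted and -0.08, -0.47, -0.69 and -0.54 fed. The groups of E2f1 overlapped and the difference was 0.20 (SE 0.22, interval -0.30 to 0.70). E2f2 was at 0.48 (SE 0.26, interval -0.12 to 1.08), with fasted arrays 1 and 3 above all other arrays.

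The atypical E2F genes E2f7 and E2f8 encode repressors that bind DNA without a DP partner and limit E2F targets late in S phase, and their tested probes lay on opposite sides of 0. E2f8 read -1.01, -1.08, -3.18 and -3.92 on fasted arrays 1 to 4 and -3.02, -5.62, -5.51 and -5.64 on fed arrays 1 to 4. The E2f8 probe gave a signal well above background on 3 of the fasted arrays and on 1 fed array, and the remaining values were not well above background. Fed array 1 lay above fasted arrays 3 and 4. The difference was 2.65 (SE 0.65, interval 1.16 to 4.14), a 6.27-fold ratio on these signals, and did not pass in limma (adjusted p = 0.788). Its size was 0.93 with normexp background correction and 4.54 in the values of the authors' matrix, and the cause was not tested. A probe that is dim in 1 group can pass the filter through the other, as this one did mostly through the fasted arrays.

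E2f7 read 0.67, 1.20, -0.10 and 1.24 on fasted arrays 1 to 4 and 1.17, 1.12, 2.28 and 1.69 on fed arrays 1 to 4. Fasted array 3 was lowest, fed array 3 was highest, and the groups overlapped between 1.12 and 1.24. The difference was -0.81 (SE 0.38, interval -1.69 to 0.06) and -0.42 without fasted array 3. A second E2f7 probe, also well above background on all 8 arrays, read -0.31, -0.95, -1.26 and -1.80 fasted and -0.97, -2.19, -1.99 and -2.10 fed. On that probe the difference was 0.73, opposite in sign to the tested probe, so no direction can be given for the gene. Both probes kept their own sign on each shared slide, at -0.50, -1.08 and -0.45 for the first and 0.66, 1.04 and 0.30 for the second. The probes lie at chr10:110219255-110219314 and chr10:110224331-110224390 in mm9, and which transcripts they match was not examined.

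The repressive E2F genes that work with p107 and p130, or with Polycomb in the case of E2f6, lay nearer 0. E2f4 read -0.89, -0.62, -0.71 and -0.45 on the fasted arrays and -1.22, -0.25, -0.45 and -0.31 on the fed arrays. Fed arrays held both the highest and the lowest E2f4 value. The differences were -0.11 for E2f4 (SE 0.27), 0.04 for E2f5 (SE 0.43) and 0.49 for E2f6 (SE 0.34), none of which passed.

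Arrays hybridised on 1 slide resembled each other, and 3 slides held 1 fasted and 1 fed array each: fasted 1 with fed 1, fasted 2 with fed 3, and fasted 4 with fed 4. Deviations from the group means correlated at 0.37, 0.54 and 0.61 within these pairs across genes, which are not independent replicates. Within the 3 slides, in that order, Ccnjl differed by 1.43, 1.88 and 0.79, Cdkn2b by 1.54, 0.54 and 0.53, and Cdkn3 by -0.57, -0.40 and -0.79. The groups of these 3 genes, and of Ccnd2 and E2f3, did not overlap, so their sign on each slide was fixed beforehand and only the size is read. The differences of these 3 genes were at least 0.40 in size, whereas Ccnd2 was at 0.09 on the slide of the first pair and E2f3 at 0.05 on that of the last. The E2f8 signals differed by 2.01, 4.42 and 1.72, taken against fed values of which 1 of 4 was well above background. The medians over the members tested were 0.07, 0.07 and 0.04. With the slide as a block, which left 2 residual degrees of freedom, limma gave no call, and the smallest adjusted p among members was 0.202, for Ccnjl. Of the members 7 then had an unadjusted p under 0.05 where 13.1% of all genes did, and E2f7 joined the other 6 with a difference of -0.68 (adjusted p = 0.280).

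**Figure D4:**
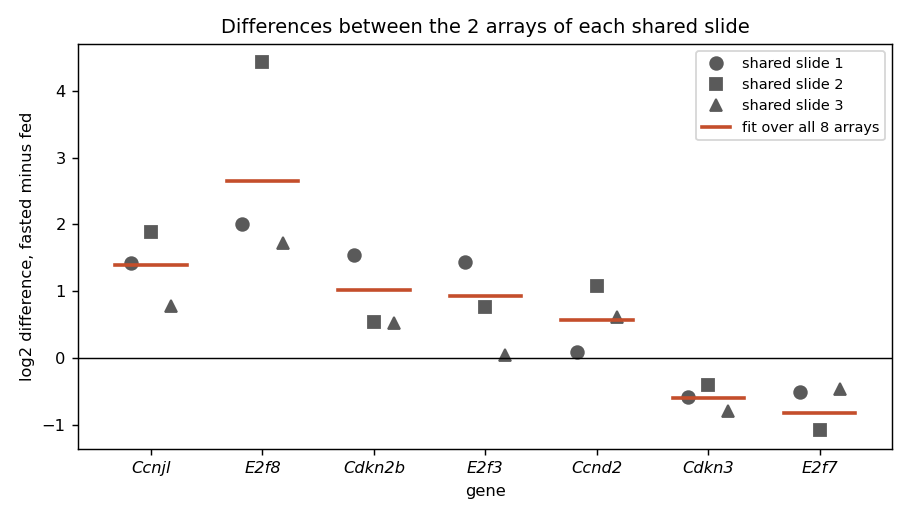
Fasted minus fed difference in log2 units on each of the 3 slides that held both groups (circle, fasted 1 with fed 1; square, fasted 2 with fed 3; triangle, fasted 4 with fed 4) and in the fit over all 8 arrays (line) for 7 members. Every slide keeps the sign of the fit for all 7. For all but E2f7 and E2f8 the groups do not overlap, so that sign was fixed beforehand. For E2f8 it was also fixed for the square and the triangle, because fed arrays 3 and 4 lay below every fasted array. A second E2f7 probe, not drawn, had the opposite sign on each slide, at 0.66, 1.04 and 0.30, so no direction is read for E2f7. E2f8 is set against fed signals mostly not well above background, while Ccnd2 is at 0.09 and E2f3 at 0.05 on 1 slide each.

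The wider pathway was described with 4 lists of other cell cycle genes, none of whose members passed the test. Of the E2F target genes of G1/S, 32 of 34 were tested. Of these, 28 were higher and 4 lower in fasted crypts, where 44.5% of all genes were higher. The median difference was 0.21 with a range from -0.66 to 1.24, and the upper end was Rpa2. Rpa2 and Tyms (0.76) each passed the filter through 4 arrays, 3 of them fasted, so both are set against mostly dim fed signals. Within the shared slides the list's median was 0.33, 0.45 and -0.14, so the third pair lay on the other side of 0. The smallest unadjusted p values in limma belonged to Lig1, the replicative DNA ligase, at -0.66 (SE 0.27), and to Uhrf1, which maintains DNA methylation after replication, at 0.60 (SE 0.26).

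Of the 28 G2/M target genes 17 were tested, 6 with a positive and 11 with a negative difference, where 44.5% of all genes were positive. Their median was -0.15 with a range from -0.93 to 0.35. Another 8 genes gave no signal well above background; among them, named after their values were seen, were the topoisomerase gene Top2a and the mitotic kinase gene Aurkb. Ndc80, a kinetochore protein, was at -0.48 (SE 0.37) and Aurka, a spindle pole kinase, at -0.47 (SE 0.38). The slide medians of the list were 0.18, -0.17 and -0.12.

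Regulators of CDKs outside the members split evenly, with 6 of 12 tested genes higher and a median of 0.00. Cdkn1a, which encodes the p53-induced CDK inhibitor p21, had a mean level of 4.80 ± 0.17 fasted and 5.22 ± 0.26 fed (SD, n = 4 each). The difference was -0.42 (SE 0.18), with overlapping groups, and did not pass. Cdk5rap3, a CDK5-binding protein, was at 0.32 (SE 0.17) and Ccng1, the p53 target cyclin G1, at -0.20 (SE 0.23). Of the E2F partners and the DREAM and MuvB subunits 4 of 7 were higher, with a median of 0.01. In that list Lin52, a MuvB subunit, was at -1.12 (SE 0.55) and Tfdp1, the DP1 partner of E2F, at 0.24 (SE 0.29).

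**Figure D5:**
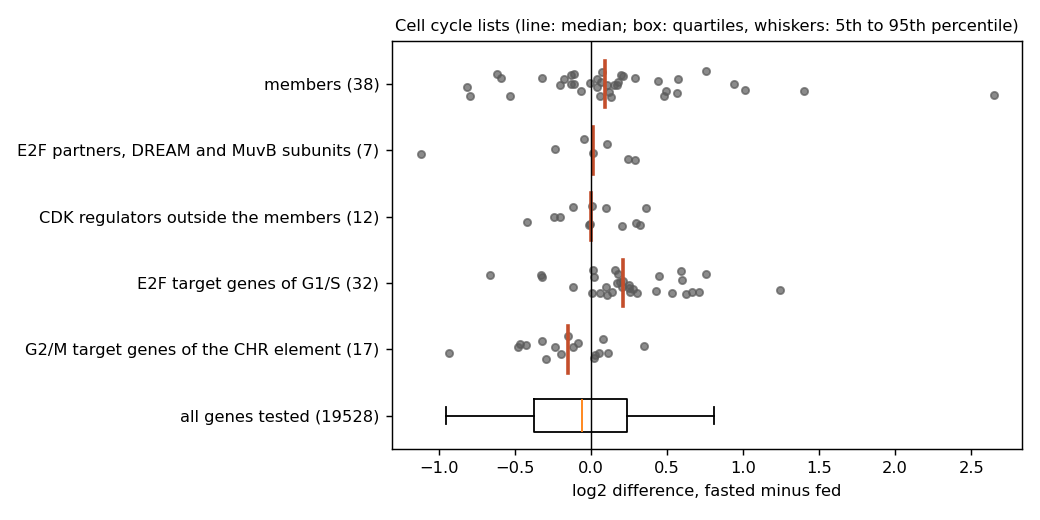
Fasted minus fed difference in log2 units of each tested gene in the members and in 4 pathway lists (points), with the list median as a red line, above a box of all 19528 genes (quartiles, whiskers from the 5th to the 95th percentile). The G1/S target list has its median at 0.21 and the G2/M list at -0.15, both within the box.

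Marker levels of some cell types also differed between the groups, although no marker passed the test. Of 20 enterocyte markers 19 were tested and all 19 were higher in fasted captures, with a median difference of 1.13. Their summed linear level, relative to the 75th percentile, ran from 104 to 210 on fasted arrays and from 50.7 to 90.6 on fed arrays, and Slc2a2 was the marker that failed the filter. Within the shared slides the enterocyte medians were 1.46, 1.31 and 0.71. All 8 Paneth cell markers tested, of 14 listed, were lower, with a median of -0.46 and sums of 326 to 438 fasted against 439 to 702 fed. Without Defa3, the brightest Paneth marker, those sums were 253 to 330 fasted and 328 to 494 fed and overlapped. The Paneth medians within the shared slides were -1.0, -0.35 and -0.02, so the third pair was near 0. The other 6 Paneth markers were not on the array under those names. Among markers of crypt base stem cells 6 were higher and 8 lower, the median was -0.09, and the sums ran from 191 to 224 fasted and from 226 to 328 fed. Ephb3, the brightest of these markers, made up most of those sums, which without it were 43.9 to 60.8 fasted and 46.6 to 83.5 fed and overlapped. The stem cell medians within the shared slides were -0.60, 0.00 and 0.13, with no common sign. Olfm4 had the smallest p of the stem cell markers, at -1.11 (SE 0.24) with every fasted value below every fed value, and did not pass. For goblet, enteroendocrine, tuft, fibroblast and smooth muscle, endothelial, leukocyte and erythroid markers the sums overlapped between the groups. Goblet sums, for example, ran from 288 to 330 fasted and from 305 to 363 fed. The part of the marker shifts in the differences of Ccnjl, Cdkn2b, E2f3, Ccnd2, Cdkn3 and the target lists was not tested.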

How the data were processed

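Each of 8 mice gave 1 Agilent single-colour array of Cy5-labelled crypt RNA, per the labels' protocols. Linear spot intensities come from the scanner files that the authors deposited, made with Feature Extraction 11.5.1.1 and with probe positions in mm9, per the file headers. A matrix of log2 values was also deposited by the authors, with ranks that follow the processed signal (Spearman correlation of at least 0.999 within an array), column medians from 7.73 to 8.33, and scaling and centring unknown. Control and outlier-flagged spots were left out, and spots of a probe were averaged. The processed signal was taken to log2 and scaled to the array's 75th percentile, then kept for probes that 4 or more of the 8 scanner files mark as well above background, the brightest probe standing for a gene. The test was limma 3.58.1 in R 4.3.3, fitted on group plus labelled sex, eBayes with a mean trend, and Benjamini-Hochberg adjustment over 19528 genes. The fit was tested on simulated data. Marker sums add linear values over a list's tested genes.

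Members and lists were chosen with earlier results of these data known. Values on every array are given for Ccnd1, Ccnd2, Ccnd3, Ccne1, Ccnb1, Ccnb2, Cdk1, Cdk2, Cdk4, Cdkn1b, Rb1, Rbl1, E2f1, E2f4, E2f7 and E2f8, and for members with an unadjusted p under 0.05 or groups that did not overlap. From each pathway list the 2 genes with the smallest p are named, with Cdkn1a and Ccng1. Alternatives changed the scaling, background correction, filter, probe rule, covariates, blocks, variance model, threshold and arrays.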

Additional observations from a re-analysis of the deposited data

Results flagged for a closer look

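Within each group the highest and lowest array of each tested member of the named set were compared with the rest by Dixon's criterion. In 1 of 40 groups checked the gap exceeded the 95% critical value, where chance alone gives about 1 in 20. It was E2f8 on the fed arrays, where fed array 1 read -3.02 while the other 3 lay between -5.64 and -5.51, a gap of 0.949 of the group's range. The E2f8 probe was well above background on 1 of the 4 fed arrays. That gap is therefore set mostly by dim signals and is not read further.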

How the results depend on the processing

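Genes and members past the threshold numbered 0 under all 24 alternatives, a Benjamini-Hochberg threshold of 0.1 included. The count of members whose groups do not overlap, 5 in all, was 3 in the authors' matrix, 8 without fasted array 3 and fed array 4, and 5 to 7 when single arrays were left out. The share of all genes under these settings is not given, and with fewer arrays the groups separate more easily by chance. A rise in the count is therefore not read as a result about the members. The members' median of 0.09 ran from 0.0022 without fasted array 3 to 0.22 without fasted array 2. Same replicate numbers did not pair the arrays (correlations of deviations from -0.47 to 0.61), and the replicate block gave 0 calls. With the slide as a fixed block the sign reversed for Ccnb1 (0.11), Ccnb2 (0.12), Ccnd1 (-0.19), Ccnd3 (-0.094) and E2f4 (0.0068), and as a random block for Ccnd1 (-0.095) and Rb1 (-0.0062). Array weights reversed Ccnb2 (0.073) and Rb1 (-0.016), normexp reversed Ccnd1 (-0.084), and the authors' matrix reversed Ccnd3 (-0.0077). Without both arrays in doubt the sign reversed for Ccnb1 (0.23), Ccnb2 (0.35), Ccnd1 (-0.20), Ccnd3 (-0.044), Cdk1 (0.021), Cdkn1b (-0.22) and Rb1 (-0.16). When single arrays were left out, differences ran from -0.36 to 0.18 for Ccnb1, -1.41 to 0.29 for Ccnb2, -0.21 to 0.35 for Ccnd1, -0.053 to 0.14 for Ccnd3, -0.15 to 0.33 for Cdkn1b, -0.32 to 0.066 for E2f4, -0.090 to 0.23 for Rb1 and -0.16 to 0.48 for Rbl1. The causes were not tested. Ccnjl and Cdkn2b kept an unadjusted p under 0.05 in limma under all 24 alternatives, against 23 for E2f3, 19 for Ccnd2 and 18 for Cdkn3. These genes are named because of that p on the same arrays, and a changed threshold leaves the p as it was. The counts therefore describe the processing only and are no support for a difference. E2f8 failed both stricter filters, and as most of its fed signals were not well above background, no count is given for it. Another 10 members were too dim to test.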
